A study of Mus musculus with 30 samples.

Results

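Transcript levels of 7 listed genes of the neurotrophin system were followed in the denervated cervical spinal cord of mice after a cortical stroke. The list holds the neurotrophins Bdnf and Ntf3, the receptors Ntrk2, Ntrk3, Ngfr and Sort1, and Vgf, whose product is a secreted neuropeptide precursor. The members were chosen by gene name with earlier results of these animals known, and Vgf and Bdnf are among the SDEGs (significantly differentially expressed genes) that the study selected on these same animals. Of the 7 genes, 6 had values among 16995 genes, and Ntf3 had none. The tissue was the intermediate laminae at levels C5/C6 of the stroke-denervated hemicord from adult C57BL/6 mice, taken from sham-operated animals, which went through surgery without illumination of the cortex, and at 5 times after a photothrombotic stroke of the sensorimotor cortex, 4, 7, 14, 28 or 42 days post-injury (dpi). Animals used for the transcriptome were female. There were 4 animals at 4 dpi, where the study left out 1 animal as an outlier, and 5 in every other group. The dissected tissue holds neurons, glia and vessels together, so fewer cells of a type and less RNA per cell cannot be told apart.

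Neurotrophins are secreted survival and growth factors. BDNF signals through the receptor tyrosine kinase TrkB, the product of Ntrk2, and NT-3, the product of Ntf3, signals mainly through TrkC, the product of Ntrk3. The p75 receptor encoded by Ngfr binds all mature neurotrophins and, together with sortilin (Sort1), the unprocessed precursors. In the spinal cord these factors are known for their actions on motor neurons, on sensory afferents and on the growth and synapses of descending axons. Vgf is a member of the granin family, is induced by neurotrophins in neurons, and is cut into peptides that are stored in dense-core vesicles.

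Bdnf is transcribed from several promoters, and some of them answer to neuronal activity through cyclic AMP response elements. Of the 6 genes with values, RefSeq promoter windows of 300 bases (GRCm38.p6, from 250 bases before to 50 after a transcript start) were matched for Bdnf (7 windows), Ntrk2 (1) and Ngfr (1), and for Ntf3, which has no values, there were 2. None was matched for Vgf, Ntrk3 or Sort1. The full element TGACGTCA was in 0 of the 7 Bdnf windows, and its shorter part TGACG, searched on both strands and contained in the full element, was in 1 of them. Of all 32851 windows, 1.79% held the full element and 20.81% the short one. The Bdnf window with the short element lies at chr2:109692186-109692485 on the plus strand. It is shown because it is the window of Bdnf that holds this sequence, with the element in capitals, which on the printed plus strand reads as its reverse complement CGTCA, starting 35 bases before the transcript start (position -35).
Bdnf promoter window: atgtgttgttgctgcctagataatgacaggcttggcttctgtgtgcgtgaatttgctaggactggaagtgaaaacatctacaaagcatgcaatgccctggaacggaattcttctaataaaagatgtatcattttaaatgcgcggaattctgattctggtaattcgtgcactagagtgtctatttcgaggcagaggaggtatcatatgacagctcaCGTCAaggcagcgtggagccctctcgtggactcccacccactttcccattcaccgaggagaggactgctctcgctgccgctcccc
The values below are sums over all transcripts of a gene, so they do not tell which of the Bdnf promoters was in use, nor the full-length from the truncated forms of TrkB and TrkC.

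The values are normalized CPM, rounded to 0.1, and no read totals were used, so the depth behind each value is unknown. The sums of the columns ran from 714597 to 2256910 and the medians over genes from 10.2 to 11.2. The ribosomal RNA gene Rn18s-rs5 ranged from 30320.8 to 52929.1 in sham-operated animals and from 44755.2 to 779159.7 at 28 dpi. Neuronal markers (summed level of 6 genes) ranged from 3843.6 to 5725.9 in sham-operated animals. Differences are on the log2(value + 0.5) scale with the standard error (SE) of a limma fit over all 29 animals, and a gene was called when its adjusted p over the 16995 genes was under 0.05 (Benjamini-Hochberg). Vgf and Bdnf were selected on their differences from sham, so these are given without a p.

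Vgf (chromosome 5, 137026392 to 137033351, plus strand, mm10) had a lower mean than the sham-operated animals at every time point, and in the values as deposited the difference was largest at 4 dpi. Its values in the sham-operated animals were 45.3, 48.3, 49.1, 56.5 and 77.5 normalized CPM. At 4 dpi they were 30.1, 30.3, 31.2 and 31.5. All 4 animals at 4 dpi were below the lowest sham-operated animal, and they differed among themselves by less than any other group. At 7 dpi the values were 29.3, 29.6, 29.8, 35.7 and 48.1, and at 14 dpi 33.2, 35.8, 38, 44.7 and 48.4. At 28 dpi they were 39.3, 44.5, 46.1, 49.4 and 54.4. These 3 groups overlapped the sham-operated one, with 1 animal at 7 dpi inside its range. At 42 dpi the values were 32, 33.9, 35.4, 36.3 and 42.3, again all below the sham-operated animals.

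The log2 difference of Vgf from sham was -0.81 at 4 dpi (SE 0.14, 95% confidence interval -1.09 to -0.53), that is, 0.571 times the sham level. It was -0.67 at 7 dpi (SE 0.13), -0.45 at 14 dpi, -0.22 at 28 dpi (interval -0.49 to 0.04) and -0.59 at 42 dpi (interval -0.86 to -0.33). In these means the distance from sham was smaller at each time from 4 to 28 dpi and larger at 42 dpi. With each animal rescaled to the same sum the order was another one, with differences of -0.80, -0.75, -0.968, -1.003 and -1.141 from the first to the last time. Vgf minus the median of all genes was -0.82, -0.68, -0.49, -0.28 and -0.62 under that scaling. Sorted by mean level, the groups ran from 4 dpi (30.8) over 7 dpi (34.5), 42 dpi (35.98), 14 dpi (40.0) and 28 dpi (46.7) to sham (55.3), and each group overlapped the next in this order. The sham-operated animal A12-1, with 77.5, weighed on all of these differences, and without it the value was -0.68 at 4 dpi and -0.09 at 28 dpi.

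Bdnf (chromosome 2, 109674700 to 109727007, plus strand) was low in this tissue and was also lower than sham at 4 dpi. The sham-operated animals had 4, 4.1, 4.4, 5.6 and 6.2 normalized CPM, and the highest was again A12-1. At 4 dpi the values were 2.7, 2.8, 3 and 3.4, and at 28 dpi 2.7, 2.9, 3.3, 3.5 and 3.8. In both groups every animal was below the lowest sham-operated one. At 7 dpi the animals had 2.1, 2.6, 3.4, 4.1 and 4.2, at 14 dpi 2.7, 3.5, 3.9, 4.7 and 4.8, and at 42 dpi 3, 3.9, 4.6, 4.6 and 5.2. These 3 groups overlapped the sham-operated animals.

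The log2 difference of Bdnf from sham was -0.61 at 4 dpi (SE 0.18, interval -0.97 to -0.25) and -0.51 at 28 dpi (SE 0.17, interval -0.85 to -0.17). It was -0.52 at 7 dpi and -0.28 at 14 dpi, where it was -0.17 without the animal A5-4. At 42 dpi it was -0.17 (interval -0.51 to 0.17). In the means of the values as deposited, Bdnf was among its lowest levels at 28 dpi, where Vgf was closest to sham, and Vgf was low at 42 dpi, where Bdnf was closest to sham. With the same sum in each animal both genes were closest to sham at 7 dpi (Bdnf -0.60), and relative to the median of all genes Vgf was closest at 28 dpi and Bdnf at 42 dpi (-0.15). The 42 dpi value of Bdnf was -0.09 without A12-1 and -0.066 without A1-3 of 42 dpi. Exons of the antisense gene Gm45346 cover 14.41% of the exonic bases of Bdnf, and with a kit that does not mark strand their reads cannot be told apart.

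**Figure D1:**
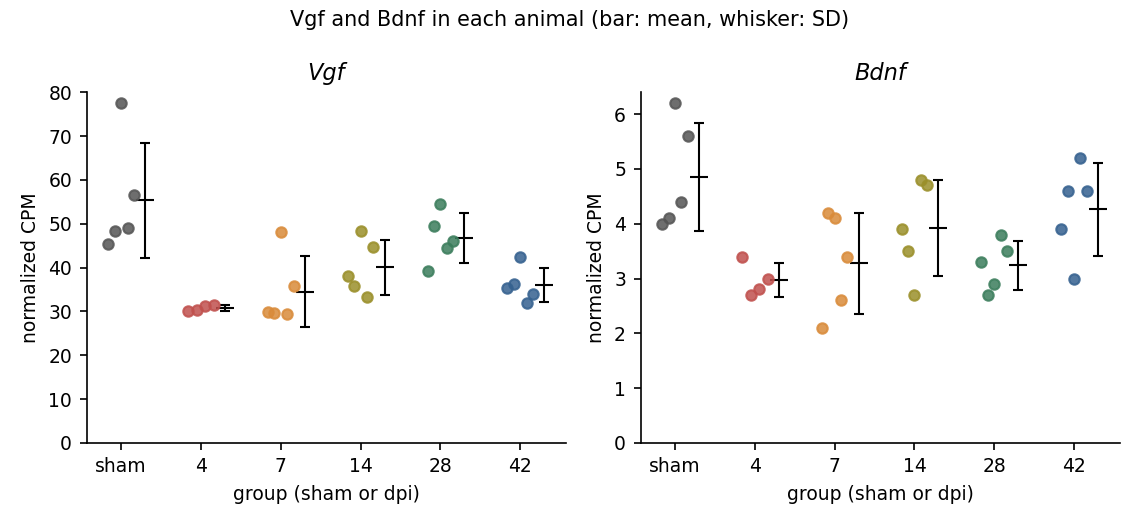
Normalized CPM of Vgf (left) and Bdnf (right) in each animal (points) by group on the x axis, with the group mean (bar) and SD (whisker). Vgf at 4 dpi (30.1 to 31.5) and 42 dpi (32 to 42.3), and Bdnf at 4 dpi (2.7 to 3.4) and 28 dpi (2.7 to 3.8), lie below every sham-operated animal.

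Of the 6 members, Bdnf and Vgf did not overlap the sham-operated animals at 4 dpi, where 1.7% of all genes did not. None was free of overlap at 7 dpi (0.971% of all genes) or 14 dpi (2.07%). At 28 dpi Bdnf and Ntrk3 did not overlap (9.9% of all genes), and at 42 dpi Vgf and Ntrk3 did not (3.31%). Since Vgf and Bdnf were selected on these differences, nothing is read from their share of these counts.

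At 4 dpi, the time at which Vgf was lowest in the values as deposited, 0.106% of all genes were called. Of the markers, 1 of 5 for astrocytes and 1 of 5 for microglia rose. The astrocyte gene Gfap rose from 183 ± 83.2 (SD, n = 5) to 399 ± 134 (n = 4; log2 difference 1.18, SE 0.25, adjusted p = 0.048, limma), and the summed level of the 5 astrocyte markers was 649.8 to 901.1 in sham-operated animals and 851.3 to 1165.8 at 4 dpi. The microglial gene Csf1r rose by 0.74 on the log2 scale (SE 0.13, adjusted p = 0.00915, limma), and the 5 microglial markers summed to 56.2 to 66.7 in sham-operated animals and 73.2 to 106.1 at 4 dpi. Of the 4 oligodendrocyte markers 0 passed the test, with a median of -0.24 and a sum of 4816.7 to 7338.6 in sham-operated animals and 3833.8 to 6053.5 at 4 dpi, and of the 3 markers of their precursors 0 passed. Of the 6 neuronal markers 0 passed at 4 dpi, and their sum was 3741.4 to 5942.4. The 5 motor neuron markers, 0 of them called, were all below sham in the mean at 4 dpi (median -0.36) and at 42 dpi (median -0.14). Their sums were 69.4 to 265.0 in sham-operated animals, 32.2 to 323.7 at 4 dpi and 77.8 to 273.2 at 42 dpi. At the times between, they were mostly above sham, 4 of the 5 at 7 dpi (median 0.05) and all 5 at 14 dpi (0.41) and 28 dpi (0.19). Calca, the 1 sensory ganglion marker with values, was not called either (-1.42 at 4 dpi, adjusted p = 0.272, and -1.04 at 42 dpi, adjusted p = 0.188, limma). The pituitary hormone genes Prl, Gh, Pomc and Tshb together had 2.5 to 4.3 in sham-operated animals and 4.5 to 19.3 at 4 dpi. The part of these cells in the levels of Vgf and Bdnf was not tested.

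Ntrk3, which encodes the NT-3 receptor TrkC (chromosome 7, 78175959 to 78738012, minus strand), was higher than sham at 28 dpi. The sham-operated animals had 105.6, 126.2, 131.4, 136.3 and 138.6 normalized CPM. At 28 dpi the values were 161.7, 166.9, 182.3, 192.8 and 197.9. Every animal at 28 dpi was above every sham-operated animal. At 42 dpi the values were 145.7, 162.2, 167.7, 171.2 and 174, also all above sham. At 14 dpi they were 98.5, 100.3, 114.1, 122.7 and 134, the lowest group. At 4 dpi (120.3, 126.1, 153.3 and 172.2) and 7 dpi (124.9, 131.6, 131.8, 139.7 and 164.1) the animals overlapped the sham-operated ones.

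Ntrk3 was higher than sham at 28 dpi by 0.50 on the log2 scale (SE 0.10, adjusted p = 0.0016, limma) or 1.41-fold. At 42 dpi the difference was 0.37 (SE 0.10, interval 0.17 to 0.56) with an adjusted p of 0.106, which did not pass. In a fit of only these 2 groups it passed (adjusted p = 0.0496, limma), and with the same sum in each animal it was -0.19. In the values as deposited the differences were 0.15 at 4 dpi, 0.12 at 7 dpi and -0.17 at 14 dpi, each with an interval that held 0. The ribosomal RNA gene Rn18s-rs5 was also higher at 28 dpi (log2 difference 2.85, SE 0.74, adjusted p = 0.00749, limma), and with its log2 value as a covariate Ntrk3 differed by 0.45 (adjusted p = 0.0591). After correction of each animal for transcript length and GC content the difference of Ntrk3 at 28 dpi was 0.15 (adjusted p = 0.0381). With the values of each animal rescaled to the same sum, ribosomal RNA included, the direction turned (Ntrk3 -0.29, adjusted p = 0.313, and Ntrk2 -0.63, adjusted p = 0.0257, limma), while the median of all genes moved to -0.73, and relative to that median Ntrk3 was 0.44 higher than sham.

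Ntrk2, which encodes the BDNF receptor TrkB (chromosome 13, 58806596 to 59133970, plus strand), was abundant and changed little. The sham-operated animals had 255.4, 258.3, 260.8, 267.4 and 297 normalized CPM, and the animals at 28 dpi 276.9, 283.1, 301, 304.5 and 325.9. The 2 groups overlapped through the sham-operated animal with 297. Ntrk2 was higher at 28 dpi by 0.16 on the log2 scale (SE 0.055, adjusted p = 0.0385, limma), or 1.11-fold. At 4 dpi (270.8, 278.8, 281.2 and 321.7), 7 dpi (274.3 to 288.3) and 42 dpi (275.1 to 302.9) the log2 differences of 0.10, 0.07 and 0.10 did not pass, and at 14 dpi (236.5 to 260.9) the difference was -0.08. The call at 28 dpi was lost when any one of 6 animals was left out (A12-1, A12-2 and A12-3 of the sham group, A3-3, A4-3 and A4-4 of 28 dpi; adjusted p from 0.0784 to 0.117), with Rn18s-rs5 as a covariate (0.27), and the direction turned after the correction for length and GC content (-0.04, adjusted p = 0.566).

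The levels of Ngfr, the p75 receptor (chromosome 11, 95568818 to 95587735, minus strand), were low. They were 1, 1.2, 1.2, 1.7 and 1.8 normalized CPM in sham-operated animals and 1.3, 2, 2.4 and 3 at 4 dpi. At 28 dpi they were 0.9, 1.9, 2.2, 2.4 and 2.8, with the lowest animal below all sham-operated ones and the other 4 above. The mean was above sham at each time point, by 0.20 to 0.49 on the log2 scale, and no difference passed the test (4 dpi 0.49, SE 0.21, adjusted p = 0.844, and 28 dpi 0.40, SE 0.20, adjusted p = 0.141, both limma). With the same sum in each animal it was below sham at 14, 28 and 42 dpi (-0.17, -0.19 and -0.13). Without the animal A4-3 at 28 dpi, which had 0.9, the difference there was 0.60 and passed (adjusted p = 0.0271, limma).

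Sort1, which encodes sortilin (chromosome 3, 108284082 to 108361511, plus strand), was not called against sham at any time point in the values as deposited. It ranged from 241.4 to 290.7 normalized CPM in sham-operated animals, from 240.6 to 265.4 at 4 and 7 dpi, from 234.7 to 253.1 at 14 dpi, from 251.7 to 303.1 at 28 dpi and from 248.9 to 286.5 at 42 dpi. Each group overlapped the sham-operated animals. The largest difference from sham was -0.13 at 14 dpi (SE 0.06, adjusted p = 0.41, limma), and at 28 and 42 dpi the differences were 0.05 (interval -0.06 to 0.17) and 0.01 (interval -0.11 to 0.12). With each animal rescaled to the same sum it was lower at 28 dpi (-0.74, adjusted p = 0.0105, limma), close to the median of all genes under that scaling (-0.73). Exons of the antisense gene Gm12523 cover 4.466% of the exonic bases of Sort1.

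**Figure D2:**
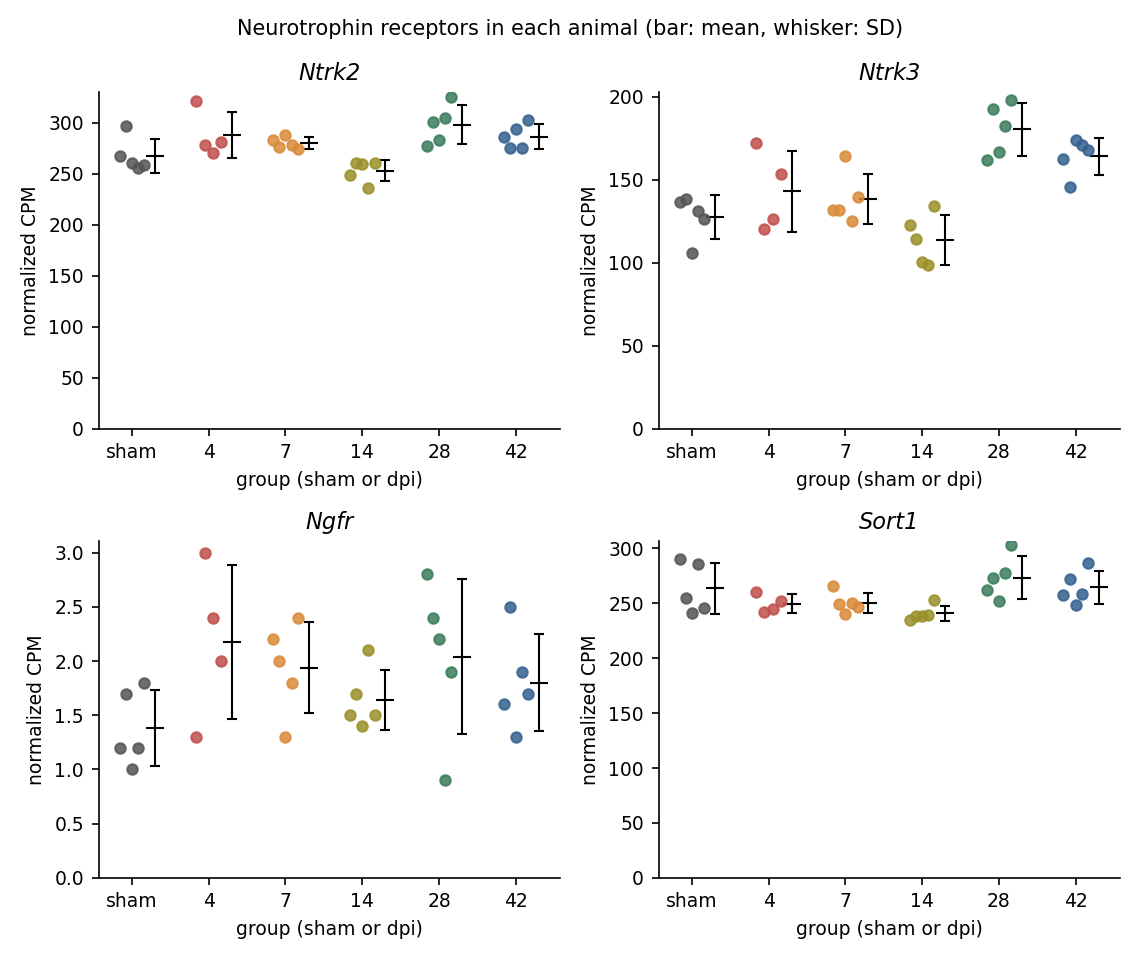
Normalized CPM of Ntrk2, Ntrk3, Ngfr and Sort1 in each animal (points) by group on the x axis, with the group mean (bar) and SD (whisker). Ntrk3 lies above every sham-operated animal at 28 dpi (161.7 to 197.9) and 42 dpi (145.7 to 174), while the other receptors overlap the sham-operated animals in each group.

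Of the 4 receptors tested against sham, 0 were called by limma at 4 dpi (1 with an unadjusted p under 0.05; 0.106% of all genes called), 0 at 7 dpi (0 unadjusted; 0.0294%) and 0 at 14 dpi (1 unadjusted; 0.00588%). At 28 dpi Ntrk2 and Ntrk3 were called, 2 of 4, where 24.9% of all genes were called. At 42 dpi 0 were called (1 unadjusted, Ntrk3), beside 0.0235% of all genes called. Of the 16995 genes, 874 had an unadjusted p under 0.05 at 4 dpi and 992 at 7 dpi. There were 1973 such genes at 14 dpi and 2507 at 42 dpi.

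**Figure D3:**
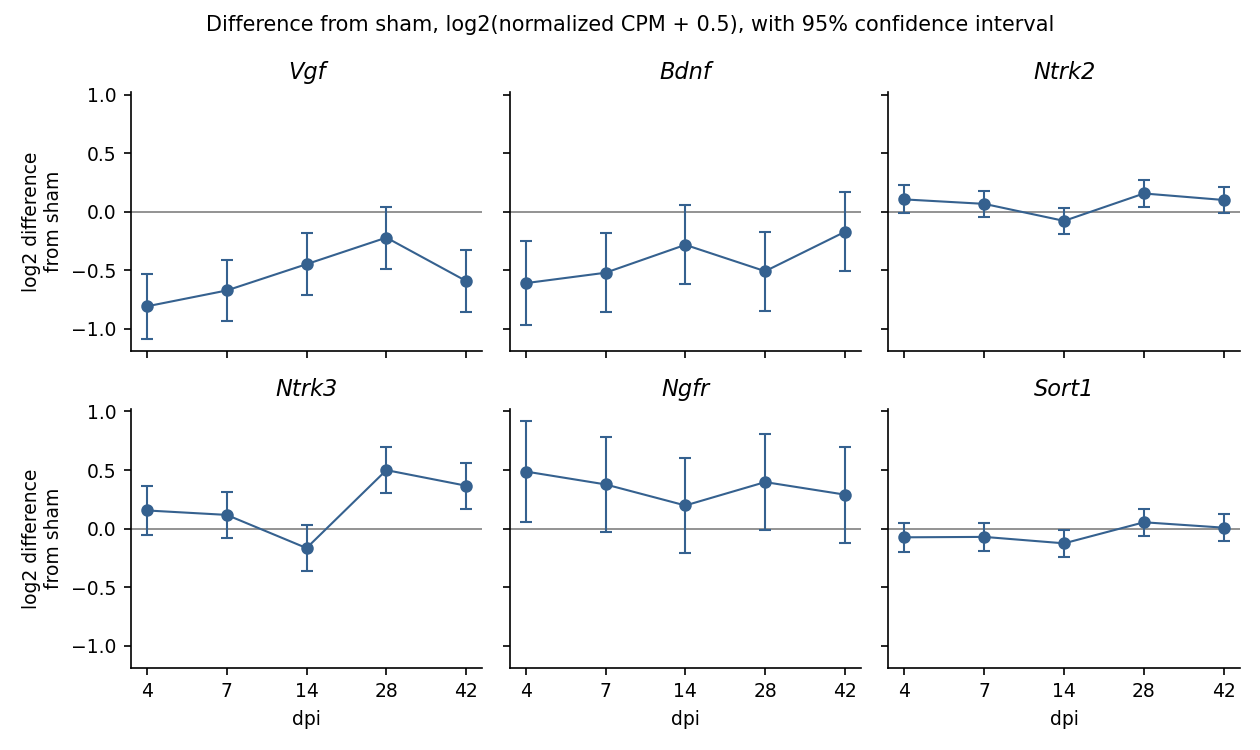
Difference from sham of the 6 genes on the log2(normalized CPM + 0.5) scale (y axis) by time point (x axis in dpi, not to scale), with 95% confidence intervals. The points of Vgf and Bdnf lie below 0 at each time, with intervals that hold 0 at 28 dpi for Vgf and at 14 and 42 dpi for Bdnf. The interval of Ntrk3 lies above 0 at 28 and 42 dpi, and the points of Sort1 stay within 0.13 of 0.

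From 14 to 28 dpi 3 of the 4 receptors rose. Ntrk3 rose by 0.67 on the log2 scale (SE 0.10, adjusted p = 1.89e-05, limma), from 114 ± 15.0 (SD, n = 5) to 180 ± 15.8 (n = 5). This is a 1.59-fold rise. Ntrk2 rose by 0.23 (SE 0.055, adjusted p = 0.00121), and Sort1 rose by 0.18 (SE 0.06, adjusted p = 0.0118). Ntrk2 and Ntrk3 did not overlap between the 2 groups (22.0% of all genes), and Sort1 overlapped through 1 animal at 14 dpi with 253.1 and 1 at 28 dpi with 251.7. Vgf (0.23, SE 0.13, adjusted p = 0.156), Ngfr (0.20, adjusted p = 0.438) and Bdnf (-0.23, SE 0.17, adjusted p = 0.277) did not pass.

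In this step 3 of 6 members were called, beside 43.0% of all genes, so their share was near that of the transcriptome. Rn18s-rs5 ranged from 32753.5 to 817779.7 at 14 dpi, and its part in the step was not tested beyond the covariate, with which Ntrk3 (0.65), Ntrk2 (0.22) and Sort1 (0.16) were still called. After the correction for transcript length and GC content 0 of 6 were called (Ntrk3 0.12, adjusted p = 0.0649), and with the values of each animal rescaled to the same sum 0 of 6 as well. The directions of Ntrk2 (-0.072 and -0.030) and Sort1 (-0.042 and -0.085) turned under both. Rescaled without 4 ribosomal RNA and linked genes, the rise of Sort1 was 0.14 and lost its call (adjusted p = 0.0797, limma). From 28 to 42 dpi limma called 0 of 6 members, beside 1.94% of all genes, and none was free of overlap (2.56% of all genes). An unadjusted p under 0.05 was found for 1 member, Vgf, and for 3583 of the 16995 genes. Vgf differed by -0.37 (SE 0.13, interval -0.64 to -0.11, adjusted p = 0.104) and Bdnf by 0.34 (SE 0.17, interval 0.00 to 0.67, adjusted p = 0.238), in opposite directions. Without the animal A3-1 at 28 dpi, which had the lowest Vgf there, the difference of Vgf was -0.43 and passed (adjusted p = 0.0475, limma). Since Vgf and Bdnf were selected on these same animals, nothing is read from their p in the 2 steps.

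Genes that work with these members were taken from 7 lists, 62 genes in all. Limma called 0 of the 62 against sham at 4 dpi (7 with an unadjusted p under 0.05), 0 at 7 dpi (5), 0 at 14 dpi (8) and 0 at 42 dpi (11). Of all 16995 genes, 874, 992, 1973 and 2507 had an unadjusted p under 0.05 at these times. At 28 dpi 17 of 62 (27.4%) were called, 6 higher and 11 lower than sham, close to the 24.9% of all genes. With 1 animal left out at a time the count ran from 6 (without the sham-operated animal A12-1) to 22 (without A3-1 of 28 dpi), and it was 8 without A12-3, 8 without A3-3, 9 without A4-3 and 10 without A4-4. With Rn18s-rs5 as a covariate 0 of the 62 were called at 28 dpi, and with the values rescaled to the same sum 50 were, all of them lower. Their median log2 difference at 28 dpi was -0.02, beside -0.0048 for all genes.

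The list of granins, the family of Vgf, and of prohormone-processing genes had no member above sham at 28 dpi. Of its 10 genes 5 fell and 0 rose, all 10 differences were negative and the median was -0.27 on the log2 scale. Of all 16995 genes 24.9% were called, 2206 of them lower. Scg5, which encodes the chaperone of prohormone convertase 2, fell by 0.51 (58.9 ± 8.07 in sham-operated animals, 42.1 ± 10.9 at 28 dpi, SD, n = 5 each, adjusted p = 0.00439, limma). Scg2 (secretogranin II) fell by 0.47, the carboxypeptidase gene Cpe by 0.36, Chgb (chromogranin B) by 0.33 and Scg3 by 0.17. Vgf itself differed from sham by -0.22 at this time in the values as deposited, and by -1.003 with the same sum in each animal. The convertase genes Pcsk1 (-0.34, adjusted p = 0.051) and Pcsk2 (-0.01) did not pass, nor did Chga (-0.20). From 14 to 28 dpi 6 of the 10 fell and 0 rose, beside 43.0% of all genes called in either direction. From 28 to 42 dpi Scg5 rose by 0.46 (adjusted p = 0.043, limma). It was the 1 of 62 pathway genes called in that step, beside 1.94% of all genes. With quantile normalization, the same sum, Rn18s-rs5 as a covariate or the length and GC correction, 0 were called there. With 1 animal left out at a time, from 0 to 7 pathway genes were called there. The summed level of the 6 neuronal markers was 3789.3 to 4341.7 at 28 dpi, and 1 of them, Snap25, was called lower than sham. At 14 dpi that sum was 4648.5 to 6322.5, above every animal at 28 dpi, and 3 of the 6 (Nefl, Snap25 and Tubb3) fell from 14 to 28 dpi, with a median of -0.23 over the list. The part of neuronal RNA in the granin levels was not tested.

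Of the other neurotrophins and their receptors, Ntf5 and Nradd were among those with no values. Of 5 genes with values 1 rose at 28 dpi (24.9% of all genes were called), Sorcs1, a relative of sortilin (log2 difference 0.23, SE 0.07, adjusted p = 0.0238, limma). From 14 to 28 dpi the sortilin relatives Sorl1 (0.41), Sorcs1 (0.28), Sorcs2 (0.28) and Sorcs3 (0.21) rose, 4 of the 5 genes, together with Sort1, in a step in which 43.0% of all genes were called. With the same sum in each animal 0 of the 62 pathway genes rose in this step and 3 fell, and the direction of Sort1 turned.

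Downstream of the Trk receptors, 3 of 18 adaptor and transducer genes rose at 28 dpi and 1 fell, 4 of 18 beside 24.9% of all genes. Frs2 (0.28), the guanine nucleotide exchange factor genes Sos1 (0.28) and Rapgef1 (0.26) rose, and the adaptor Crk fell by 0.20. The median of the list was 0.06. Of 8 p75 interactors 0 rose and 2 fell, a share like the 24.9% of all genes, Bex3 by 0.45 and Maged1 by 0.23, both genes of p75-binding proteins. Of 10 genes of proneurotrophin processing and transport 2 rose and 2 fell, beside 24.9% of all genes called. Furin (0.25), a protease that cuts proneurotrophins, and Htt (0.31), which takes part in the transport of BDNF vesicles, rose. Cpe and Plat (-0.26), the gene of tissue plasminogen activator, fell.

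Of the 2 genes of receptors for Vgf peptides 1 was called at 28 dpi, beside 24.9% of all genes. C1qbp fell at 28 dpi by 0.35 (adjusted p = 0.0377, limma), and C3ar1, also a marker of microglia, differed by 0.47 (adjusted p = 0.116). Among genes regulated by activity and CREB, 1 of 10 fell at 28 dpi, where 24.9% of all genes were called. This was Fos, which fell by 0.66 (10.2 ± 2.82 to 6.20 ± 1.27 normalized CPM, SD, n = 5 each, adjusted p = 0.0406, limma), and 0 of the 10 rose. Egr2 and Egr3 had no values. At 4 dpi, the time of the lowest mean Vgf and Bdnf in the values as deposited, 0 of the 10 passed. Their median was -0.14, and Arc differed by -0.45 (adjusted p = 0.134, limma). At 42 dpi the median was -0.29, and again 0 passed.

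**Figure D4:**
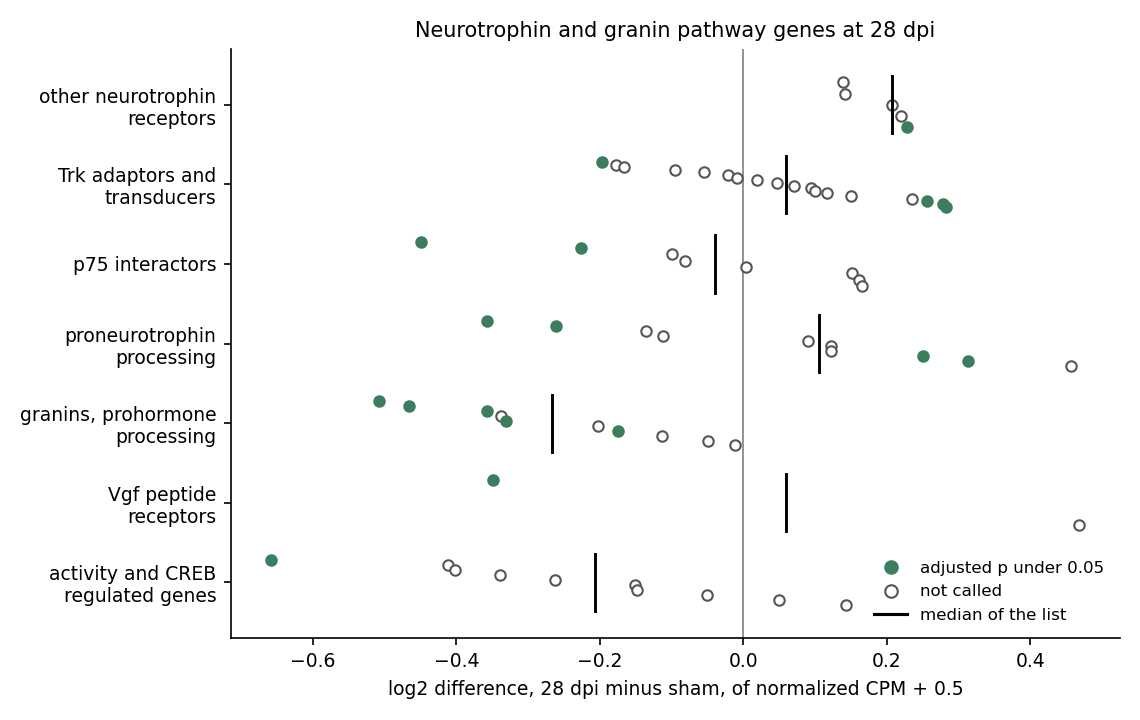
Log2 difference between 28 dpi and sham (x axis) of the genes of each list (rows), filled where the adjusted p was under 0.05 and open where it was not, with the median of the list as a line. All 10 granin and prohormone-processing genes lie below 0, with a median of -0.27, while the 5 genes of the list of other neurotrophin receptors lie above 0. Cpe is in both processing lists.

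Within groups, after the group means were subtracted, 15 pairs of the 6 genes were compared over the 29 animals with 100000 permutations of animals within groups. The planned 21 pairs included Ntf3. Ntrk2 and Ntrk3 went together (Pearson's r = 0.63, permutation p = 0.00121, adjusted p = 0.0181, Spearman's rho = 0.62, permutation p = 0.00129, adjusted p = 0.0193). With log2 Rn18s-rs5 removed the r was 0.62 (adjusted permutation p = 0.0255). Without the 2 animals farthest from the median of Ntrk2 it was 0.51 and, with fewer animals, no longer called (adjusted permutation p = 0.104). For Bdnf and Vgf the relation did not pass (r = 0.13, rho = 0.07, adjusted permutation p = 0.743 and 0.822). The other 13 pairs had r from -0.45 to 0.37, and the smallest adjusted permutation p was 0.15 for r and 0.1 for rho. The 6 genes were also set against log2 Rn18s-rs5 and the mean log2 levels of the activity list, the neuron markers and the astrocyte markers, and 0 of these 24 relations passed. The largest was that of Vgf with the astrocyte markers (r = -0.53, permutation p = 0.0229, adjusted p = 0.183, rho = -0.47, permutation p = 0.0278, adjusted p = 0.246), and leaving out the 2 most distant animals gave an r of -0.38.

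**Figure D5:**
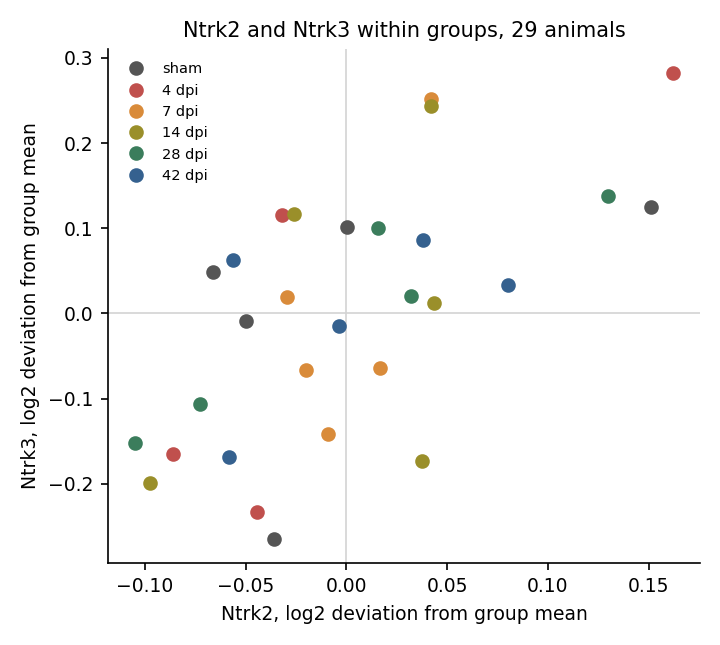
Deviation of Ntrk2 (x axis) and Ntrk3 (y axis) from the group mean on the log2 scale, 1 point per animal, coloured by group. The animals spread from low in both genes to high in both (r = 0.63 over 29 animals), and the animals farthest out in Ntrk2 are also high in Ntrk3.

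Levels of different genes were compared per kb of the longest annotated transcript. In sham-operated animals Sort1 (38.6 ± 3.36 normalized CPM per kb, SD, n = 5) and Ntrk2 (30.6 ± 1.94) were highest, followed by Vgf (19.5 ± 4.61) and Ntrk3 (6.48 ± 0.67). Bdnf (1.14 ± 0.23) and Ngfr (0.40 ± 0.10) were the lowest. The ranges over the 5 animals did not overlap between any neighbours in this order. With the median transcript length Ntrk3 (129) and Ntrk2 (92.9) came first, so the place of the Trk receptors in this order depends on the length used.

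Genes with the pattern most like each member over the 29 animals were sought among 15497 genes with a mean of at least 1, as a description. Closest to Vgf were Tmem151b (r = 0.77), Etv5 (0.69) and Hcn2 (0.67), with 0.45, 0.46 and 0.50 after the group means were subtracted. Closest to Bdnf were Rian (0.71), Pcsk1 (0.69) and Ccdc117 (0.68), with 0.61, 0.58 and 0.50 after subtraction. For Ntrk3 the likeness was much higher, with Tmem245 (0.98), the glutamate receptor gene Grin2b (0.97) and Srrm2 (0.97), and it was 0.95, 0.93 and 0.91 after subtraction. Ntrk2 was closest to the ion channel genes Kcna1 (0.91) and Scn8a (0.90) and to Plxna4 (0.90), Sort1 to Acaca, Usp31 and Foxn3 (each 0.88), and Ngfr to Slc12a9 (0.64), Vat1 (0.60) and Kif4 (0.58). After subtraction these were 0.85, 0.82 and 0.84 for Ntrk2, 0.80, 0.86 and 0.81 for Sort1 and 0.68, 0.62 and 0.47 for Ngfr. The likeness and the relations within groups were taken on values not corrected for transcript length and GC content. The part of these in them was not tested.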

How the data were processed

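RNA of the intermediate laminae was taken from 30 labelled mice in 6 groups, and 29 had a column of values. The score that the authors deposited for each gene and animal is a normalized CPM, rounded to 0.1. Per the study's methods, reads were quantified with SALMON on the mouse transcriptome (mm10), summarised per gene with Tximport and normalized with edgeR (version 3.14.0 under R 3.4.1 in the submitters' processing notes). Whether reads were counted by strand is not given in the sources used here. The values are not counts and the depth is unknown, so count models and counting intervals were not used. The deposited table also held no separate columns of unmapped samples.

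Groups came from the sample titles, with Ctrl read as sham-operated. Animals of a group are separate mice, and no animal label is shared between groups. A linear model with 6 group means was fitted to log2(value + 0.5) with limma 3.58.1 (R 4.3.3, trend on the mean value) over all 29 animals and 16995 genes, and tested on simulated data first. Called genes had an adjusted p under 0.05 (Benjamini-Hochberg). The members and gene lists were chosen with earlier results of these data known. Correlations used two-sided permutations within groups (Python 3.11.15, numpy 2.4.6, scipy 1.17.1). Named were the members, list genes called against sham (up to 4 per list with the largest change, Scg3 in addition), list genes with no values, and the 3 genes most like each member. Beyond those named in the text, Lmx1b and Tlx3 (excitatory neurons), Scn10a, Avil and Trpv1 (sensory ganglion) and Cga and Lhb (pituitary) had no values. Some list genes are not reported here. Transcript lengths and exon overlaps were taken from GENCODE M21, gene positions from the deposited table, and promoter windows from RefSeq on GRCm38.p6. Alternatives were other normalizations and pseudocounts (1 and 0.05), a minimum mean of 1, no trend, fits of 2 groups, the unit in the animal label as a random block, Rn18s-rs5 as a covariate, a correction for length and GC content, and leaving out each animal. A rescaling without 4 ribosomal RNA and linked genes (Rn18s-rs5, Lars2, AY036118 and Mir6240) was added after the values were seen.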

Additional observations from a re-analysis of the deposited data

Results flagged for a closer look

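In 2 of 36 groups of animals 1 animal stood apart from the others (Dixon's criterion, 95% level, which chance passes in about 1 in 20 groups). In the sham-operated group 1 animal had 297 normalized CPM of Ntrk2 beside 255.4 to 267.4 in the others, and without it the difference of Ntrk2 at 28 dpi was 0.19 on the log2 scale (adjusted p = 0.016, limma). At 14 dpi 1 animal had 253.1 of Sort1 beside 234.7 to 239.3 in the others, and without it the rise of Sort1 from 14 to 28 dpi was 0.20 (adjusted p = 0.00981, limma).

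The difference from sham changed between 14 and 28 dpi for Ntrk3 (by 0.67 on the log2 scale), Ntrk2 (by 0.23) and Sort1 (by 0.18), by the test of the step itself in the same limma fit, in which 43.0% of all genes were called. After the correction for transcript length and GC content none of the 3 was called, and the direction turned for Ntrk2 (-0.072) and Sort1 (-0.042), as it did with the same sum in each animal (-0.030 and -0.085).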

How the results depend on the processing

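Bdnf and Vgf kept their direction from sham at each time point under all alternatives and with each animal left out. With a common sum of all values per animal, ribosomal RNA included, the median difference of all genes from sham was -0.48 at 14, -0.73 at 28 and -0.52 at 42 dpi. The members against sham at 14, 28 and 42 dpi were then -0.75, -1.19 and -0.68 for Bdnf, -0.968, -1.003 and -1.141 for Vgf. Ngfr was -0.17, -0.19 and -0.13. At 28 and 42 dpi Ntrk2 was -0.63 and -0.45, Ntrk3 was -0.29 and -0.19, and Sort1 was -0.74 and -0.55, with Ntrk2 and Sort1 called lower at 28 dpi (adjusted p = 0.0257 and 0.0105, limma), and Ntrk2 at 7 dpi was -0.0048. Relative to the median, Ntrk3 at 28 dpi was 0.44 and Ntrk2 0.091. From 14 to 28 dpi this scaling gave Vgf -0.035, Ntrk2 -0.030, Ntrk3 0.40, Ngfr -0.019 and Sort1 -0.085, with 0 members called, and from 28 to 42 dpi Ntrk2 0.18, Ntrk3 0.10, Ngfr 0.065 and Sort1 0.19. It called 50 pathway genes at 28 dpi (0 higher and 50 lower, against 6 and 11), 3 at 42 dpi, 3 from 14 to 28 dpi (all lower) and 0 from 28 to 42 dpi. Over all genes at 28 dpi it called 34 higher and 11217 lower, against 2024 and 2206.

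Corrected for transcript length and GC content, Ntrk2 was 0.035 at 14 dpi, -0.037 at 28 dpi, -0.072 from 14 to 28 dpi and 0.054 from 28 to 42 dpi. Ntrk3 was 0.024 at 14 dpi, 0.12 from 14 to 28 dpi and 0.052 from 28 to 42 dpi. Sort1 was -0.089 at 28 dpi, -0.043 at 42 dpi, -0.042 from 14 to 28 dpi and 0.047 from 28 to 42 dpi. This left 1 member called at 28 dpi and 0 from 14 to 28 dpi, with 1 pathway gene at 4 dpi and 0 from 28 to 42 dpi. With Rn18s-rs5 as a covariate Ntrk2 was 0.13, Ntrk3 0.45 and Sort1 -0.0047 at 28 dpi, Sort1 was -0.042 at 42 dpi, and 0 members and 0 pathway genes were called at 28 dpi and 0 pathway genes from 28 to 42 dpi. Rescaled without 4 ribosomal RNA and linked genes, an alternative chosen after seeing the data, the median of all genes at 28 dpi was -0.11, Ntrk2 was 0.039 and Sort1 -0.062 at 28 dpi, Sort1 was -0.055 at 42 dpi, 0.14 from 14 to 28 dpi (no longer called, adjusted p = 0.0797, limma) and 0.0074 from 28 to 42 dpi, and 1 member was called at 28 dpi and 0 pathway genes from 28 to 42 dpi.

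Without the trend Ntrk2 at 28 dpi was 0.16 (adjusted p = 0.0512, limma), leaving 1 member called, and 0 pathway genes were called from 28 to 42 dpi. In fits of only the 2 groups Ntrk2 was 0.16 at 28 dpi (adjusted p = 0.131, limma), again 1 member, and Ntrk3 was 0.37 at 42 dpi (adjusted p = 0.0496), so 1 member was called there. Pathway genes called in these fits were 7 at 28 dpi, 3 at 42 dpi and 0 from 28 to 42 dpi. Quantile normalization gave Ngfr -0.0075 from 14 to 28 dpi and 0 pathway genes from 28 to 42 dpi, and the label unit as a random block (consensus correlation -0.04) gave 2. Without the 2 farthest animals the r of Ntrk2 and Ntrk3 was 0.51, of Bdnf and Ntrk3 -0.016 and of Bdnf and Sort1 0.018. With the median transcript length the sham level per kb was 92.9 for Ntrk2 and 129 for Ntrk3.

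With each animal left out in turn Ntrk2 at 28 dpi was 0.12 to 0.19, Ngfr at 28 dpi 0.29 to 0.60, Sort1 at 42 dpi -0.023 to 0.044, Vgf from 28 to 42 dpi -0.43 to -0.31, and Ngfr in that step -0.31 to 0.0014. Members called ranged from 1 to 2 at 28 dpi and from 0 to 1 from 28 to 42 dpi. Pathway genes called ranged from 6 to 22 at 28 dpi, and from 0 to 7 from 28 to 42 dpi, with 7 without A3-1 and 4 without A4-1. The cause of these shifts was not tested. No paired analysis was possible because no animal label occurs in 2 groups and a single label unit (A3) holds animals of 2 groups, 28 and 42 dpi. The depth of the libraries is unknown, and for Bdnf and Ngfr the rounding to 0.1 limits the precision of each value.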
